A study of Mus musculus with 9 samples.

Results

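The 10 genes described here encode extracellular matrix proteins that are laid down in and around basement membranes: the collagen I chains Col1a1 and Col1a2, the collagen IV chains Col4a1 and Col4a2, the laminin chains Lama1, Lamb1 and Lamc1, nidogen (Nid1), Sparc and fibronectin (Fn1). They were picked by symbol from the 35771 rows of a table of mouse gene counts, and all 10 were among the 13424 genes with enough counts to be tested. The choice was made on results of these same samples, so the levels of the 10 genes and the differences between groups are given as a description, without p-values.

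RNA was sequenced from mouse embryonic stem cells (ESCs), which are pluripotent cells of the early embryo kept in culture, as single-end reads of 75 bp. Every group was homozygous for iMOS T1-Myc on a mixed background and also carried RERT. The iMOS allele produces cells with different numbers of extra copies of Myc, a transcription factor known for promoting cell growth and metabolism, each marked by the fluorescent protein EYFP. Cultures were grown on gelatin, a collagen-derived coating, with LIF, the cytokine that sustains mouse ESCs. Cultures exposed for 24 h to 20 µM 4-hydroxytamoxifen became mosaics, and 24 h after its removal the cells were sorted by EYFP into those with 2 extra Myc copies, called 2-extra cells here, and those without one, called 0-extra cells. The labels do not say from how many clones the line came, and no source used here names the promoter that drives the extra copies. The third group was uninduced cells of the same genotype, which were sorted as well. The labels repeat the drug treatment for the uninduced samples, whose group was therefore taken from their titles and the design text. Cells with 1 extra copy are not analysed here.

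Each group held 3 libraries, 9 in all, with totals of 4165286 to 8872303 counts. The design text calls the 3 samples of a group biological replicas, and the labels do not say whether they came from separate cultures, so the spread given here may in part be technical. The 2-extra replicate 1 stood apart from its group, with a chi-square per degree of freedom of 2.67 and 3.02 against the other two, where all other pairs within groups had 1.35 to 1.80. Myc itself stood at 13.3 ± 1.51 CPM (counts scaled to a common library total) in uninduced cells, 31.6 ± 0.913 CPM in 0-extra cells and 142 ± 4.36 CPM in 2-extra cells (SD, n = 3 each). The groups sorted for no extra copy and for 2 extra copies therefore both had more Myc RNA than uninduced cells. The libraries also differed in a trend of counts over transcript length, and it went with group. Its r across genes was 0.063 to 0.160 in uninduced libraries, above all others, -0.030 to 0.036 in 0-extra libraries and -0.163 to 0.022 in 2-extra libraries, and 9 of the 10 matrix genes are longer than the median tested gene (4387 bp of exons). The part of this trend in the differences was not tested, except that a fit with a length correction was run beside the one reported.

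A basement membrane is a thin sheet of matrix under epithelial cells, and in the early mouse embryo one lies between the epiblast, the counterpart of ESCs in the embryo, and the primitive endoderm. Laminin, built of an alpha, a beta and a gamma chain, polymerises first at the cell surface; collagen IV, whose protomer holds Col4a1 and Col4a2 chains, forms a second network; nidogen and perlecan link the 2 networks. Sparc is a collagen-binding glycoprotein that accompanies collagen IV. Fibronectin and collagen I belong to the interstitial matrix, and collagen I is the fibrillar collagen typical of mesenchymal cells.

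Levels fell into 4 orders over the groups. The collagen I genes were highest in 0-extra cells, intermediate in 2-extra cells and lowest in uninduced cells. Col4a1, Col4a2, Sparc, Nid1 and Lamc1 were also highest in 0-extra cells, but in 2-extra cells they lay near or below uninduced cells. Lama1 and Lamb1 had like means in uninduced cells and in 0-extra cells and lower ones in 2-extra cells. Fn1 had its highest mean in uninduced cells and its lowest in 2-extra cells. None of the 10 genes followed the order of Myc upwards, from uninduced through no extra copy to 2 extra copies. In bulk samples such as these, fewer cells that make a transcript and less of it per cell cannot be told apart.

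**Figure D1:**
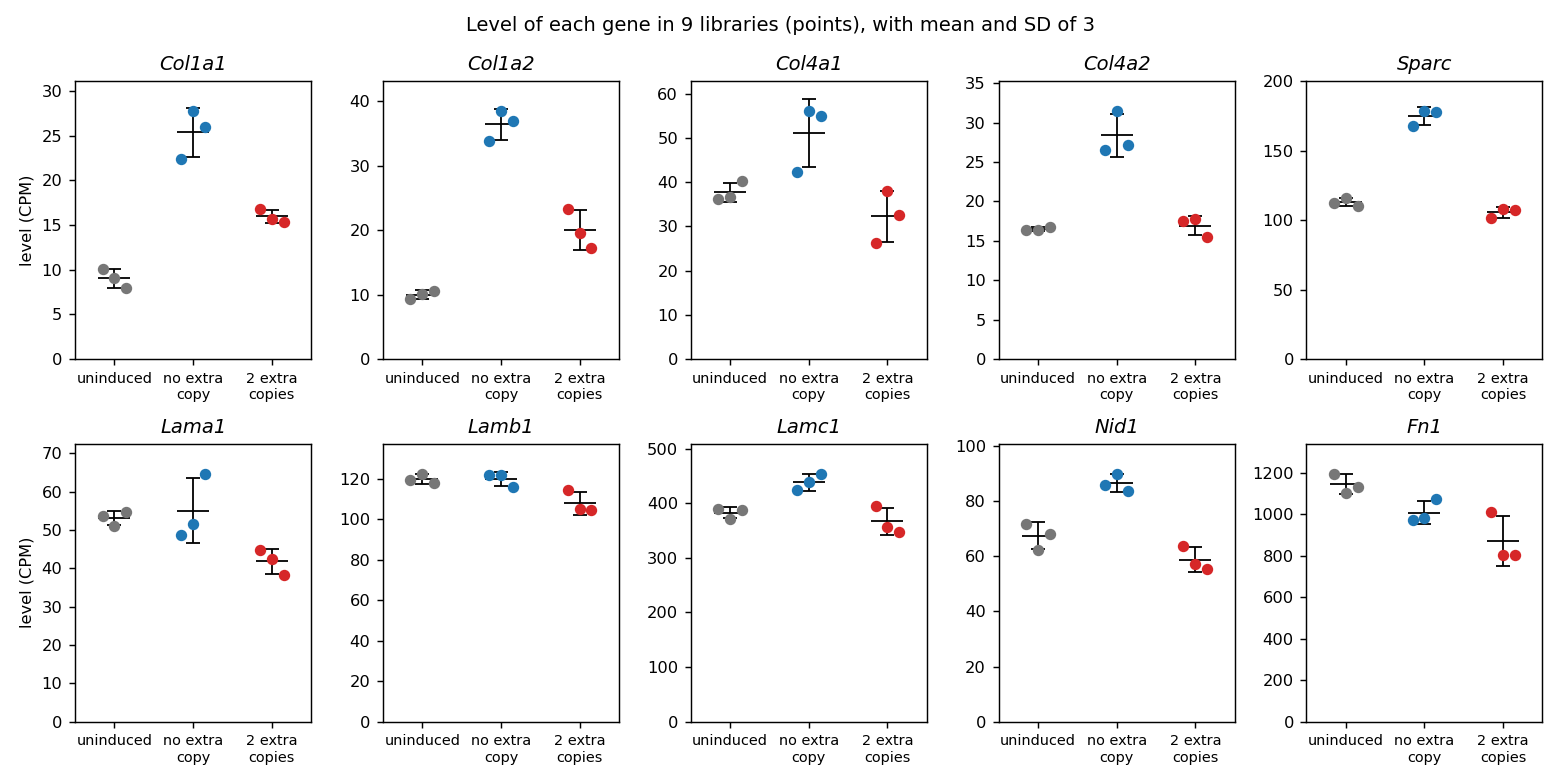
Level of each of the 10 matrix genes in CPM (vertical axis, from 0) in the 3 libraries of each group (points), with the mean (line) and SD (whiskers). For Col1a1, Col1a2, Col4a1, Col4a2, Sparc, Lamc1 and Nid1 all 0-extra libraries lie above all others, while Fn1 is highest in the uninduced libraries. The share of all genes tested that separate in this way is not given here.

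Collagen I showed the widest differences. Col1a1 (ENSMUSG00000001506; GRCm38 chromosome 11, 94936224 to 94953042, plus strand) encodes the alpha 1 chain, which is present in duplicate in the collagen I molecule. It measured 10.1, 9.07 and 8.005 CPM in the uninduced libraries, 22.4, 27.8 and 25.96 CPM in 0-extra cells and 16.8, 15.7 and 15.4 CPM in 2-extra cells. The 3 groups did not overlap: each 2-extra library lay between the other groups. For this and the genes below, the share of all genes tested whose groups separate is not given here. Nothing is therefore read from a lack of overlap. Its fitted level was 2.81-fold the uninduced level in 0-extra cells (log2 1.49, SE 0.12) and 1.75-fold in 2-extra cells (log2 0.81, SE 0.13). Between the sorted populations of the mosaic, it was 1.61-fold lower in 2-extra cells (log2 -0.68, SE 0.11).

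Col1a2 (ENSMUSG00000029661; chromosome 6, 4504814 to 4541544, plus strand) encodes the partner alpha 2 chain. Its uninduced libraries had 9.28, 10.1 and 10.6 CPM, against 33.8, 38.5 and 36.9 CPM in 0-extra cells and 23.3, 19.5 and 17.2 CPM in 2-extra cells. Again no library of one group reached another group. The level was 3.66-fold the uninduced level in 0-extra cells (log2 1.87, SE 0.11), which ranked 9 from the top among the log2 differences of the 13424 genes tested, where Col1a1 ranked 22. In 2-extra cells it was 1.99-fold that of uninduced cells (log2 0.99, SE 0.13), and 1.84-fold lower than in 0-extra cells (log2 -0.88, SE 0.10). The lowest count of a collagen I gene in a library was 52.

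Collagen IV differed less than collagen I, and its level in 2-extra cells lay nearer to that of uninduced cells. Col4a1 (ENSMUSG00000031502; chromosome 8, 11198423 to 11312826, minus strand) had 36.3, 36.7 and 40.2 CPM in uninduced libraries, 42.3, 56.2 and 55.0 CPM in 0-extra cells, and 26.3, 37.9 and 32.6 CPM in 2-extra cells. The 0-extra libraries lay above all others, while those of the other 2 groups overlapped. The ratio to uninduced cells was 1.37 in 0-extra cells (log2 0.45, SE 0.12), and in 2-extra cells Col4a1 was 1.59-fold below 0-extra cells (log2 -0.67, SE 0.13).

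Col4a2 (ENSMUSG00000031503; chromosome 8, 11312805 to 11449287, plus strand) was tighter over libraries, at 16.3, 16.4 and 16.8 CPM in uninduced cells, 26.5, 31.5 and 27.1 CPM in 0-extra cells, and 17.5, 17.7 and 15.5 CPM in 2-extra cells. Only the 0-extra libraries stood apart. The level was 1.75-fold that of uninduced cells there (log2 0.80, SE 0.10). In 2-extra cells it was 1.02-fold that of uninduced cells, inside the overlap of the groups (log2 0.03, SE 0.11), and 1.71-fold lower than in 0-extra cells (log2 -0.77, SE 0.11).

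The 2 collagen IV genes lie head to head on opposite strands, and their annotated first exons share 22 bases, from 11312805 to 11312826. The stretch around both starts, read on the plus strand of GRCm38.p6 at chr8:11312797-11312834 from the RefSeq promoter table, is shown because 1 short piece of DNA holds the start of both genes, with the shared exon bases in capitals:
Col4a1-Col4a2: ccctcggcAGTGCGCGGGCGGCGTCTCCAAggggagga
No statement on strand in the counting was found, so reads in the shared bases cannot be assigned to either gene; they make up 0.295% of the exonic bases of Col4a1. On a per-length scale (counts divided by exon length and scaled to a common total over all genes), the Col4a1 to Col4a2 ratio was 2.03 ± 0.084 in uninduced cells, 1.60 ± 0.19 in 0-extra cells and 1.70 ± 0.32 in 2-extra cells (SD, n = 3 each). The ratios of the last 2 groups overlapped, and all 6 of their libraries lay below the 3 uninduced ones. In 2-extra cells the ratio was 1.33 in replicate 1, which stood apart, and 1.90 and 1.86 in replicates 2 and 3. The uninduced libraries ran from 1.97 to 2.12.

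Promoters were compared for the 6 of the 10 genes with an entry in the RefSeq table of GRCm38.p6, which gives 300 bases around each start: Col1a2, Col4a1, Col4a2, Lamb1, Nid1 and Sparc. Stretches of 3 of them that lie outside annotated exons, for Col1a2 inside the annotated gene, are shown as examples of 3 different orders over the groups, with CCAAT and GGGCGG, read on either strand, in capitals. They lie at chr6:4505370-4505492 (Col1a2), chr13:13437352-13437550 (Nid1) and chr12:31265043-31265145 (Lamb1), all on the plus strand.
Col1a2: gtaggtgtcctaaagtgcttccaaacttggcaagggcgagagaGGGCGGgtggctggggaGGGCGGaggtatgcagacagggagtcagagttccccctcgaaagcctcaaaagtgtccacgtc
Nid1: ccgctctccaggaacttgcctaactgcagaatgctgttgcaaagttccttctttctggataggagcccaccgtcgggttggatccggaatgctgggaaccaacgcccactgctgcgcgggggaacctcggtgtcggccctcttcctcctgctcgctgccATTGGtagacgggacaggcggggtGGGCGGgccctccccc
Lamb1: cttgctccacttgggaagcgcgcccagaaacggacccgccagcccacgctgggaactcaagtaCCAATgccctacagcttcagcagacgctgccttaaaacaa
Over the full 300 bases, CCAAT was found on either strand in 5 of the 6 promoters and in 37.4% of all 32851 promoters of the table. GGGCGG, the core of a GC box, was found in 5 of 6 and in 35.7% of all. The windows of Col4a1 and Col4a2 overlap, and the only GGGCGG of Col4a1 is also counted for Col4a2. Sparc held neither. The E-box CACGTG, the sequence to which Myc with its partner Max is known to bind best, was in 0 of 6 windows and in 7.15% of all, and TATAAA in 0 of 6 and in 13.6%. GGAATG, bound by TEAD factors, was in 1 of 6 (Nid1) and in 14.7% of all, and the CArG box in 0 of 6 and in 1.63%. These are matches of letters in a short window and say nothing about binding.

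The laminin chains differed from each other in their order over the groups. Lama1 (ENSMUSG00000032796; chromosome 17, 67697259 to 67822647, plus strand) encodes the alpha 1 chain of the laminin found in the earliest embryonic basement membranes. It stood at 53.7, 51.2 and 54.8 CPM in uninduced libraries, 48.8, 51.6 and 64.8 CPM in 0-extra cells, and 44.9, 42.5 and 38.4 CPM in 2-extra cells. The first 2 groups overlapped, and 0-extra replicate 3 was higher than the other libraries. The 2-extra libraries were the lowest, 1.27-fold below uninduced cells (log2 -0.35, SE 0.084) and 1.29-fold below 0-extra cells (log2 -0.37, SE 0.086). With a correction for transcript length, the log2 difference from uninduced cells was -0.27.

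Lamb1 (ENSMUSG00000002900; chromosome 12, 31265234 to 31329644, plus strand), the beta 1 chain, had 119, 123 and 118 CPM in uninduced libraries, 122, 122 and 116 CPM in 0-extra cells, and 114, 105 and 104 CPM in 2-extra cells. The uninduced libraries and the 0-extra libraries overlapped (log2 0.0029, SE 0.048), with a 95% interval of the ratio from 0.939 to 1.07. In 2-extra cells the level was 1.11-fold lower than in uninduced cells (log2 -0.15, SE 0.049). With a correction for transcript length and the replicate block this log2 difference was -0.072.

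Lamc1 (ENSMUSG00000026478; chromosome 1, 153218922 to 153332786, minus strand), the gamma 1 chain shared by most laminins, followed the collagen IV order instead. Its libraries had 389.6, 372 and 387 CPM in uninduced cells, 423, 438 and 454 CPM in 0-extra cells, and 395, 357 and 348 CPM in 2-extra cells. All 0-extra libraries were above the rest, by 1.15-fold over uninduced cells (log2 0.20, SE 0.042). In 2-extra cells it was 1.20-fold lower than in 0-extra cells (log2 -0.26, SE 0.042) and overlapped the uninduced libraries.

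Nidogen, which binds laminin and collagen IV, and the collagen-binding Sparc also had their highest levels in 0-extra cells. Nid1 (ENSMUSG00000005397; chromosome 13, 13437551 to 13512269, plus strand) had 71.8, 62.3 and 68.2 CPM in uninduced libraries, 85.8, 89.99 and 83.6 CPM in 0-extra cells, and 63.8, 57.3 and 55.3 CPM in 2-extra cells. The level in 0-extra cells was 1.29-fold that of uninduced cells (log2 0.37, SE 0.062), with no overlap. Against 0-extra cells, 2-extra cells were 1.48-fold lower (log2 -0.57, SE 0.066). Against uninduced cells they were 1.15-fold lower, with 1 library inside the uninduced range (log2 -0.20, SE 0.067). Annotated genes on the other strand overlap 2.06% of the exonic bases of Nid1 (Gm48682) and 2.5% of those of Fn1 (Apol7d).

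Sparc (ENSMUSG00000018593; chromosome 11, 55394500 to 55423183, minus strand) had 113, 116 and 110.2 CPM in uninduced cells, 168, 179 and 178 CPM in 0-extra cells, and 101, 108 and 108 CPM in 2-extra cells. The 0-extra libraries stood far above both other groups. The ratio to uninduced cells was 1.55 (log2 0.63, SE 0.046), and 2-extra cells were 1.65-fold lower than 0-extra cells (log2 -0.73, SE 0.047). They were 1.07-fold below uninduced cells, without overlap but by about the size of 2 standard errors (log2 -0.10, SE 0.049).

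Fibronectin went the other way. Fn1 (ENSMUSG00000026193; chromosome 1, 71585520 to 71653200, minus strand) encodes a matrix glycoprotein bound by integrins. Per length it was the most abundant of the 10 genes in each group. Its libraries had 1196, 1102 and 1132 CPM in uninduced cells, 973, 981 and 1071 CPM in 0-extra cells, and 1009.6, 802 and 803 CPM in 2-extra cells. The uninduced libraries were the highest 3 of the 9, and the other 2 groups overlapped through 2-extra replicate 1, the only one of its group above 973 CPM. In 0-extra cells Fn1 was 1.14-fold below uninduced cells (log2 -0.18, SE 0.099), and in 2-extra cells it was 1.31-fold below (log2 -0.39, SE 0.10). Without that replicate, the log2 difference between the sorted populations was -0.31 in place of -0.21. With a correction for transcript length, the log2 difference of 2-extra from uninduced cells was -0.29. With that correction and the replicate block, the log2 difference of 0-extra from uninduced cells was -0.13.

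**Figure D2:**
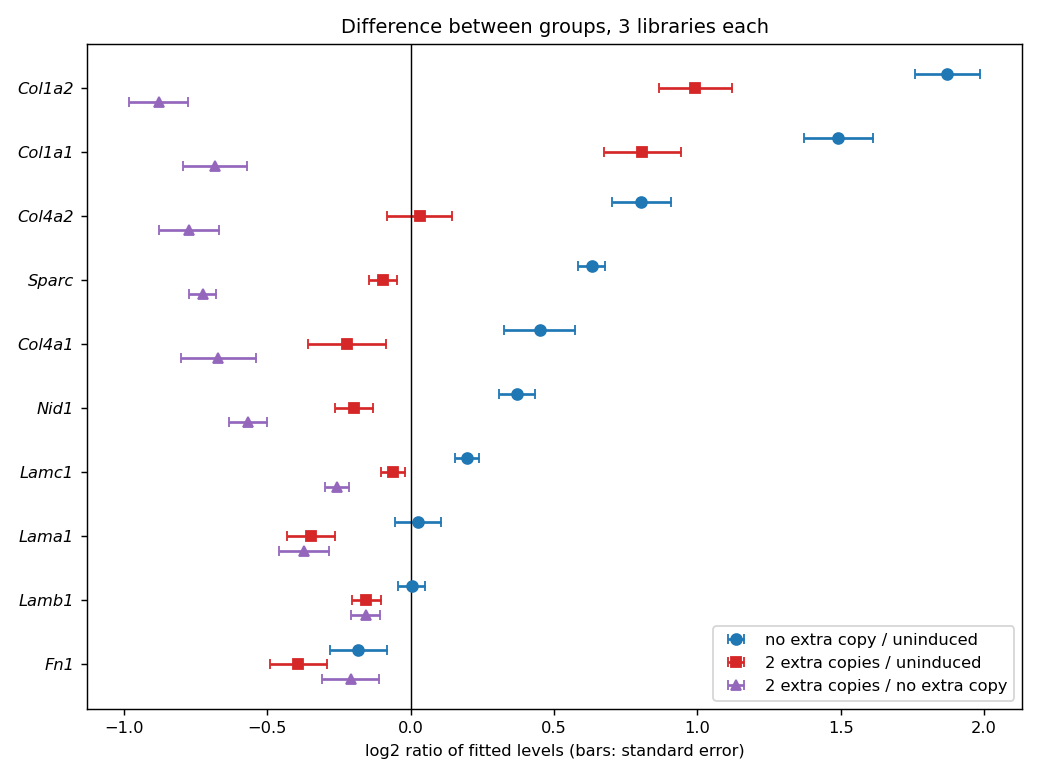
Log2 ratio of the fitted levels (horizontal axis) for each matrix gene in the 3 comparisons, with standard errors as bars, from 3 libraries a group. Relative to uninduced cells the ratios run from 1.87 for Col1a2 to -0.18 for Fn1 in 0-extra cells, and all 10 triangles, which set 2-extra against 0-extra cells, lie left of 0.

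Counted over the whole table, a gene was called when its adjusted p in the quasi-likelihood test of edgeR was below 0.05. In 0-extra against uninduced cells, 7 of the 10 genes were called higher, where 7.10% of the genes tested were, and 0 lower, where 6.39% were. For the lower direction the count at an unadjusted p under 0.05 was also 0, and DESeq2 called 0. In 2-extra against uninduced cells, 2 were called higher (Col1a1 and Col1a2) and 4 lower (Lama1, Lamb1, Fn1 and Nid1), beside 12.8% and 12.1% of all genes. DESeq2 called 2 of those 4, and without replicate 2 or without replicate 3 of the 2-extra group 1 was called lower. Between the sorted populations 0 were called higher and 9 lower, all but Fn1, beside 8.30% and 7.70%; unadjusted, 0 and 9 passed. Without 2-extra replicate 1, which stood apart, the counts higher and lower were 7 and 1, 2 and 5, and 0 and 10. Nothing is read from these counts, since the genes were chosen on results of these comparisons. The 3 comparisons also share their groups: each group serves in 2 of them. The median log2 differences of the 10 genes were 0.41, -0.12 and -0.62 in the order given, beside 0.0022, -0.014 and -0.012 for all genes tested. Leaving out 2-extra replicate 1 moved the log2 differences of that group from uninduced cells to -0.090 for Col4a1 (from -0.22), 0.88 for Col1a2 (from 0.99) and -0.50 for Fn1 (from -0.39). Against 0-extra cells it moved Col4a1 to -0.54 and Col1a2 to -0.98, and no log2 difference of the other 7 genes moved by more than 0.048.

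Levels of different genes can be set side by side only per length. On that scale Fn1 stood at 323 ± 18.5 in uninduced cells, higher than 96.6% of the genes tested, and Col1a2 at 2.65 ± 0.137, higher than 11.6%. Between them came Lamc1 (153), Sparc (98.4), Lamb1 (39.9), Nid1 (32.1), Lama1 (18.1), Col4a1 (16.7), Col4a2 (8.22) and Col1a1 (4.56), all as per-length means of uninduced cells. In 0-extra cells Sparc reached 152 ± 5.70, Col4a1 22.6 ± 3.40, Col1a1 12.7 ± 1.36 and Col1a2 9.65 ± 0.626 (SD, n = 3). The neighbours Nid1 and Lamb1, Lama1 and Col4a1, and Col4a2 and Col1a1 were there within their spread of each other, and in 2-extra cells so were Lama1 and Col4a1, at 13.8 ± 1.28 and 13.7 ± 2.33. Some of these orders depend on the length used. By the longest transcript in place of the exon union, Sparc stood above Lamc1 in 0-extra cells (186 against 141) and Lama1 just below Col4a1 in uninduced cells (13.7 against 14.0). The collagen I chains changed order too: by exon union the Col1a1 to Col1a2 ratio was 1.73 ± 0.32, 1.32 ± 0.057 and 1.53 ± 0.16 in uninduced cells, in 0-extra cells and in 2-extra cells. By the longest transcript it was 0.825 ± 0.153, 0.628 ± 0.0269 and 0.727 ± 0.0762.

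The laminin chains were far from equal. Per length, Lama1 stood at 0.119 of Lamc1 in uninduced cells, 0.107 in 0-extra cells and 0.0977 in 2-extra cells, with SDs of 0.0019, 0.013 and 0.0037. Lamb1 stood at 0.262, 0.228 and 0.246 of Lamc1, with SDs of 0.012, 0.014 and 0.0043, and by the longest transcript at 0.413, 0.361 and 0.388. Lama5 was more abundant than Lama1 and is the alpha chain of the laminins known to sustain ESC self-renewal, at 121 ± 7.44, 131 ± 10.02 and 112 ± 11.9 in the same order. Its ratio to Lama1 ran from 6.43 to 6.91 in the uninduced libraries, from 6.30 to 7.64 in 0-extra cells and from 7.83 to 8.34 in 2-extra cells, the last group above all other libraries. Lamb2, the alternative beta chain, was below Lamb1, at 19.1 ± 1.04 in uninduced cells. Nid2, the relative of Nid1, stood at 195 ± 9.09, 180 ± 8.56 and 152 ± 6.69 per length, and so was several times as abundant as Nid1 in each group.

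**Figure D3:**
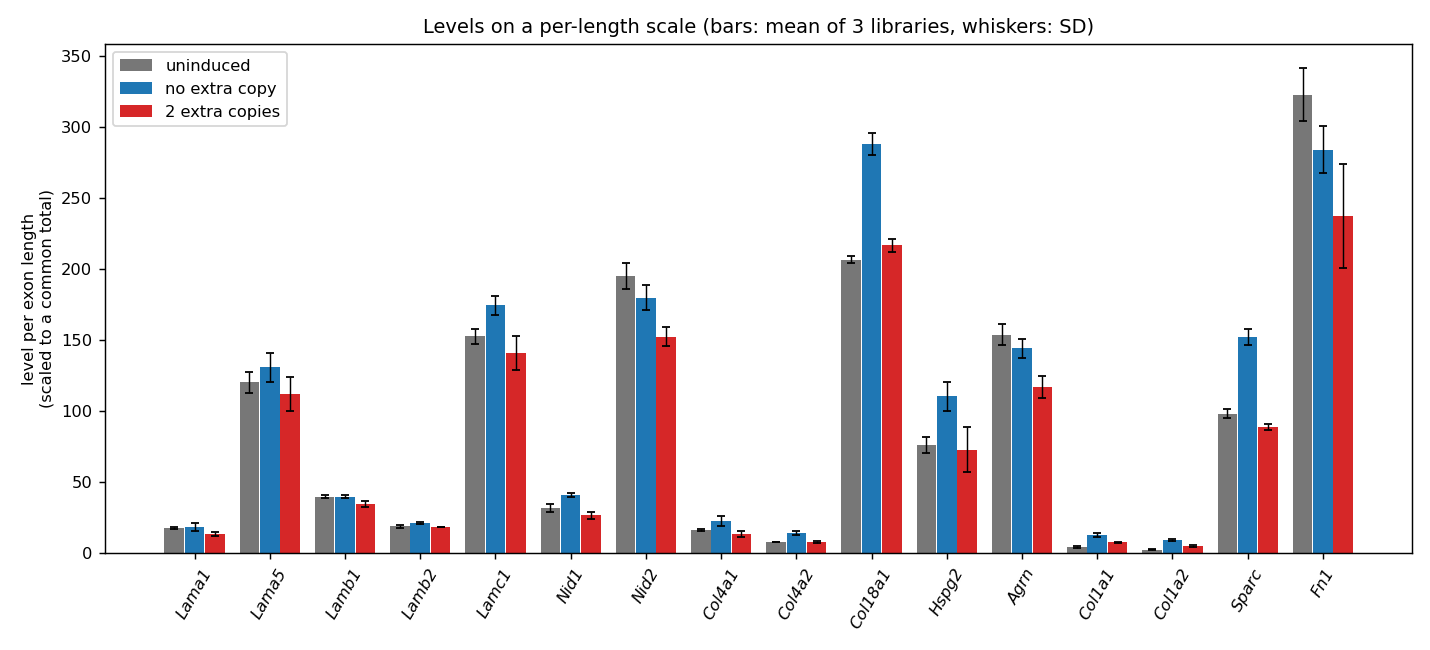
Level per exon length, scaled to a common total over all genes (vertical axis, from 0), for the matrix genes and their laminin, nidogen, proteoglycan and collagen XVIII partners. Bars are means of 3 libraries per group and whiskers SDs. Fn1, Col18a1, Nid2 and Lamc1 are among the tallest, Lama5 stands well above Lama1, and of the genes plotted the collagen I chains are the shortest.

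The remaining basement membrane genes were examined from a list of 24, of which 15 passed the filter on low counts. In 0-extra against uninduced cells 4 of the 15 were called higher and 0 lower, beside 7.10% and 6.39% of all genes tested. At an unadjusted p under 0.05 there were 7 and 3, and DESeq2 called 3 and 0. There were 2 higher without uninduced replicate 1, uninduced replicate 3 or 0-extra replicate 2, and 3 were lower without 2-extra replicate 1. Col18a1, the core of a heparan sulfate proteoglycan collagen that yields endostatin, rose from 439.8 ± 7.36 to 614 ± 17.6 CPM (1.40-fold, log2 0.48, SE 0.036, edgeR adjusted p = 5.11e-12). Perlecan, Hspg2, had 331 ± 19.1 CPM in uninduced cells and 480.1 ± 41.9 CPM in 0-extra cells, a ratio of 1.45 that missed the threshold (edgeR adjusted p = 0.0657). Nid2 and agrin (Agrn) had ratios of 0.923 and 0.938 and did not pass (edgeR adjusted p = 0.0612 and 0.137).

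In 2-extra against uninduced cells, 2 of these 15 genes were called higher and 4 lower, beside 12.8% and 12.1% of all genes tested. Only 2 were lower without uninduced replicate 1, and 1 was higher without uninduced replicate 2 or 2-extra replicate 2. Agrn, a proteoglycan that binds laminin, fell 1.27-fold to 342 ± 17.5 CPM (edgeR adjusted p = 1.06e-07) and Nid2 1.23-fold to 248 ± 7.26 CPM (edgeR adjusted p = 1.46e-06). Smoc1, a Sparc-related modular protein of basement membranes, rose 1.34-fold to 60.3 ± 2.67 CPM (edgeR adjusted p = 1.77e-05). Between the sorted populations 1 was higher and 6 lower in 2-extra cells, beside 8.30% and 7.70% of all genes tested. Smoc1 was again the higher one, at 1.28-fold (edgeR adjusted p = 0.000365). Col18a1 was 1.29-fold lower (edgeR adjusted p = 1.07e-08). The median log2 differences of the list were 0.12, -0.054 and -0.25 in the 3 comparisons.

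Of 28 further fibrillar and interstitial matrix genes, 22 were tested. In 0-extra cells 10 were called higher than in uninduced cells and 0 lower, beside 7.10% and 6.39% of all genes tested. At an unadjusted p under 0.05 there were 12 and 0. DESeq2 called 5 and 0, and 6 were higher without 0-extra replicate 2. Col5a1 and Col5a2, the chains of collagen V, which assembles into collagen I fibrils, rose 1.93-fold and 1.76-fold (edgeR adjusted p = 4.43e-06 and 3.82e-05). Thrombospondin 1, Thbs1, rose 2.21-fold, from 15.1 ± 3.69 to 32.9 ± 3.38 CPM (edgeR adjusted p = 0.000436). In 2-extra cells 7 were higher than in uninduced cells and 1 lower, beside 12.8% and 12.1% of all genes tested. The higher ones included Col5a1 at 1.60-fold, Col5a2 at 1.503-fold, Thbs1 at 1.71-fold and fibulin 2 (Fbln2) at 1.90-fold (edgeR adjusted p = 0.00046, 0.0018, 0.00514 and 0.000759). The lower one was the cartilage collagen Col2a1, at 1.45-fold (edgeR adjusted p = 0.000131); 2 were lower without uninduced replicate 3, 2-extra replicate 1 or 0-extra replicate 1. Between the sorted populations 0 were higher and 5 lower, beside 8.30% and 7.70% of all genes tested. Unadjusted there were 2 and 11, and DESeq2 called 0 and 3. Col2a1 was 1.63-fold lower and the matricellular protein Ccn1 1.58-fold lower (edgeR adjusted p = 6.38e-06 and 5.36e-05). There was 1 higher without replicate 2 of either sorted population. In that comparison Col5a1 and Col5a2 had ratios of 0.832 and 0.852 and did not pass (edgeR adjusted p = 0.166 and 0.240). The median log2 differences of the list were 0.49, 0.17 and -0.36.

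Of 28 genes for the making of collagen and laminin tested from a list of 31, 3 were called higher and 3 lower in 0-extra against uninduced cells, where 7.10% and 6.39% of all genes tested were. P4ha1, a catalytic subunit of prolyl 4-hydroxylase, which stabilises the triple helix, fell 1.83-fold from 29.03 ± 2.78 to 15.7 ± 0.834 CPM (edgeR adjusted p = 2.25e-07). Plod2, a lysyl hydroxylase for collagen crosslinks, fell 1.29-fold, and the collagen chaperone Serpinh1 fell 1.25-fold to 154 ± 7.02 CPM (edgeR adjusted p = 0.0021 and 0.000505). Crtap, part of the prolyl 3-hydroxylase complex, rose 1.27-fold (edgeR adjusted p = 0.000305), and Fkbp10, which assists collagen folding, rose 1.23-fold (edgeR adjusted p = 0.0104). Bmp1, the protease that trims the C-terminal end of procollagen, rose 1.66-fold (edgeR adjusted p = 0.0016). Its call was lost with DESeq2 or without 0-extra replicate 2, and that of Fkbp10 with DESeq2 or without 0-extra replicate 1. DESeq2 called 1 higher and 3 lower.

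In 2-extra cells the same list had 2 genes higher and 4 lower than uninduced cells, beside 12.8% and 12.1% of all genes tested. P4ha1 fell 1.84-fold, Plod2 1.28-fold and Serpinh1 1.41-fold, and the crosslinking enzyme Loxl2 was also lower (edgeR adjusted p = 1.37e-07, 0.00161, 2.28e-06 and 0.000253). Crtap rose 1.29-fold (edgeR adjusted p = 7.69e-05). DESeq2, and the fit without 2-extra replicate 3, called 1 higher. Between the sorted populations 1 gene was higher and 5 were lower, beside 8.30% and 7.70% of all genes tested. DESeq2 called only 0 and 1. Leaving out 1 library at a time left 0 or 1 higher and 1 to 5 lower, with the lowest count without 2-extra replicate 3. There were 2 lower without 0-extra replicate 3 and 3 without 0-extra replicate 1 or 2-extra replicate 2. The higher one was lost without 0-extra replicate 1 or 2, or 2-extra replicate 2. Bmp1 was 1.75-fold lower there (edgeR adjusted p = 0.000929). Its means were 6.86 CPM in uninduced, 11.2 CPM in 0-extra and 6.49 CPM in 2-extra cells, so the 0-extra group was the one apart. P4ha1 stood at 15.7 and 15.6 CPM in the sorted populations, a ratio of 0.992 with a 95% interval from 0.841 to 1.1699, and P4ha2, Plod1, Lox and Plod2 did not pass either. The median log2 differences of the list were 0.055, -0.0022 and -0.055.

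**Figure D4:**
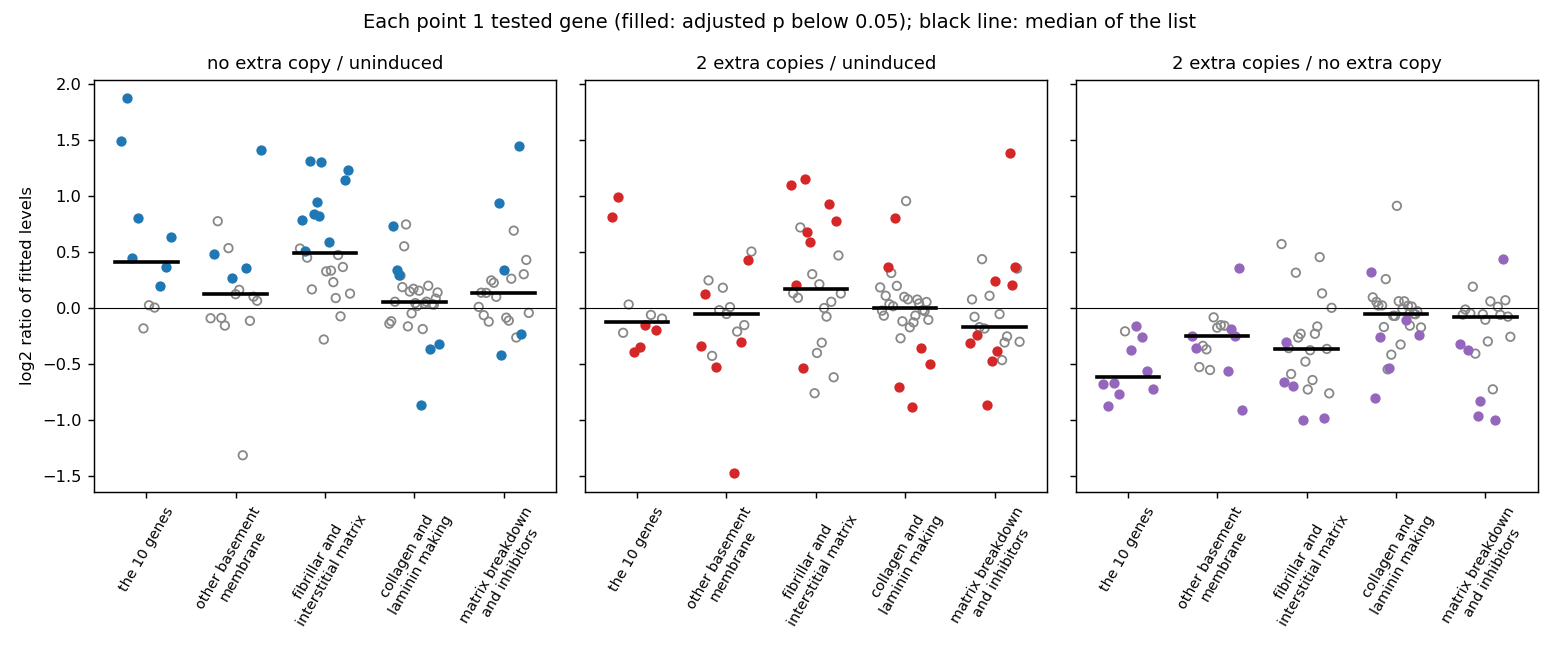
Log2 ratio of fitted levels (vertical axis) for every tested gene of the matrix lists, in 1 panel per comparison; filled points had an adjusted p below 0.05 in edgeR, open points did not, and black lines are list medians. In 0-extra cells the medians are 0.41 for the 10 genes and 0.49 for the fibrillar list, and the median of the making list is 0.055.

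Markers of cells known for making these proteins were measured beside them. Of 17 markers of extraembryonic endoderm, the embryonic tissue that secretes large amounts of laminin and collagen IV, 7 were below 1 CPM in every library, and Ttr had no count. Their summed level was 109.8 to 118 CPM in uninduced libraries, 95.9 to 117 CPM in 0-extra cells and 47.7 to 83.6 CPM in 2-extra cells. By counts, not per length, most of it came from the endocytic receptor Lrp2, at 85.4 CPM in uninduced and 40.0 CPM in 2-extra cells. Of the defining factors, Gata6 and Sox17 had group means between 0.22 and 1.06 CPM. Gata4 had means of 4.14, 3.87 and 3.14 CPM in uninduced, 0-extra and 2-extra cells. In 0-extra cells the libraries of Sox17 (mean 0.842 against 0.220 CPM in uninduced cells) and of Pdgfra (2.03 against 1.19 CPM) did not overlap the uninduced ones, while Lrp2 stood at 75.2 against 85.4 CPM and overlapped. Of the 8 that were tested, 0 were called in either direction in 0-extra cells, beside 7.10% higher and 6.39% lower of all genes. At an unadjusted p under 0.05 there were 1 higher and 0 lower, and DESeq2 called 0. In 2-extra cells 3 were lower than in uninduced cells and 1 was lower than in 0-extra cells, beside 12.1% and 7.70% of all genes. That 3 became 1 by DESeq2, without uninduced replicate 1 or without 2-extra replicate 2, and that 1 became 3 without replicate 1 and 0 without replicate 3 of the 2-extra group. The part of these cells in the levels of collagen IV, laminin and Sparc was not tested.

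Of 14 markers of fibroblasts and smooth muscle, 6 were below 1 CPM in every library. Fap had no count, and Prrx1, Twist2 and Meox2 had group means of at most 0.324 CPM. The summed level was 79.9 to 82.8 CPM in uninduced libraries, 166 to 178 CPM in 0-extra cells and 92.2 to 111 CPM in 2-extra cells, the same order as collagen I. By counts, most of it came from contractile genes: Acta2 rose 2.75-fold, Tagln 2.41-fold and Myl9 1.71-fold in 0-extra cells (edgeR adjusted p = 2.25e-13, 8.49e-15 and 9.75e-05). Not all kept the order of the sum. In 2-extra cells Acta2 (23.3 CPM) and Tagln (53.8 CPM) stood above their uninduced means of 18.6 and 34.5 CPM. Myl9 stood below its uninduced mean, at 6.84 against 9.57 CPM. Of the 8 tested, 4 were higher and 0 lower in 0-extra against uninduced cells, beside 7.10% and 6.39% of all genes tested. In 2-extra against 0-extra cells 0 were higher and 4 lower, beside 8.30% and 7.70%. Against uninduced cells 2 were higher and 1 lower in 2-extra cells, beside 12.8% and 12.1%. DESeq2 called 1 and 0, as did the fit without uninduced replicate 1 or 2-extra replicate 2. There was 1 higher without uninduced replicate 3, and 0 were lower without 2-extra replicate 1. Twist1 and Thy1, at group means of 3.41 to 4.99 CPM, were not called in any comparison. The part of such cells in the collagen I levels was not tested. Pluripotent cell markers summed to 3649 to 4051 CPM over the 9 libraries, and 10 of 10 were above the filter. Of these, 5 were higher and 2 lower in 0-extra than in uninduced cells, 1 and 2 in 2-extra than in uninduced cells, and 0 and 5 in 2-extra than in 0-extra cells. Of all genes tested, 7.10% and 6.39%, 12.8% and 12.1%, and 8.30% and 7.70% were called in the same order. The 2 lower in the first comparison became 1 with DESeq2 or without any 1 of its 6 libraries. In the second, 2 were higher without 2-extra replicate 1 or 2, 2 were higher and 4 lower with a length correction, and 2 and 5 with that correction and the replicate block.

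The genes whose levels ran most like those of 4 of the matrix genes were taken by Pearson's r of log2(CPM + 0.5) over the 9 libraries, among 9484 genes averaging 10 CPM or more. The libraries share their group and its treatment, so r also reflects the difference between groups. For Col1a2 they were Col1a1 (r = 0.977), Npr1 (0.977) and Pomgnt1 (0.974). Sparc ran with Klf4 (0.990), Shb (0.984) and Nuak1 (0.983). Klf4, a transcription factor of naive pluripotency, stood at 55.8 ± 0.292 CPM in uninduced cells, 67.8 ± 2.21 in 0-extra cells and 55.3 ± 0.792 in 2-extra cells. For Col4a1 the nearest were Tlnrd1 (0.953), Tubb2b (0.951) and Farp1 (0.9496), and its chain partner Col4a2 was not among them. For Lamb1 they were Tacc1 (0.981), Gm26547 (0.971) and Pign (0.966). Among the 45 pairs of the 10 genes the median r was 0.645, 42 were above 0, and the range ran from -0.379 for Col1a1 with Fn1 to 0.977 for Col1a1 with Col1a2. With the mean of each group removed, the median r was 0.342. The r of those 2 pairs was then 0.434 for Col1a1 with Fn1 and 0.235 for Col1a1 with Col1a2.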

How the data were processed

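The deposited table held 1 expected count per gene and library, which the authors made with RSEM 1.17 on GRCm38, per the submitters' processing notes, with annotation release 84 in the column names per the file headers. Cutadapt, Picard and limma are named there too, with no role given. The aligner and any use of strand are not given in the sources used here. Symbols, coordinates and exon lengths came from GENCODE M21, which named 35432 of 35771 identifiers, and promoters from the RefSeq table.

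Expected counts were rounded, scaled by TMM and filtered with filterByExpr by group, leaving 13424 genes with 99.8% of counts. Differences and every adjusted p come from the robust quasi-likelihood test of edgeR 4.0.16 in R 4.3.3, fitted to all 9 libraries with 1 coefficient per group and Benjamini-Hochberg adjusted over all genes tested. Standard errors are the absolute log2 difference divided by the square root of F. Intervals cover 95%. The common biological coefficient of variation was 0.0394. On simulated counts for no extra copy against uninduced cells (13232 genes), 100 of 100 genes changed 2-fold and 92 of 100 changed 1.5-fold were called, and 7.69% of calls were false. The simulation used dispersions estimated from these data and held no length trend and no library that stood apart. Its shares therefore need not hold for the real counts.

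The 10 genes and all lists were chosen with earlier results of these data known. All 10 are named; from each other list called genes averaging 5 CPM or more with the 3 largest rises or falls could be named, with the partners Nid2, Hspg2, Agrn, Lama5, Lamb2, Col5a1, Col5a2, Serpinh1, P4ha1, P4ha2, Plod1, Plod2 and Lox. Gata4, Gata6, Sox17, Pdgfra, Lrp2, Ttr, Fap, Prrx1, Twist1, Twist2, Meox2 and Thy1 were named after their values were seen. Some genes of the lists are not reported here. The alternatives were DESeq2 1.42.0, limma-voom (limma 3.58.1), other scaling factors and filters, fits of only the groups compared, a length correction, the replicate number as a block and leaving out each library.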

Additional observations from a re-analysis of the deposited data

How the results depend on the processing

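The 10 genes were chosen on results of these same libraries, so a call kept here is no support for a difference. Their 30 differences were recomputed under 20 alternatives. Collagen I, Col4a2, Sparc, Nid1 and Lamc1 kept their direction and call under all of them in 0-extra against uninduced cells. Col4a1 lost its call there without any one of 6 libraries. Among the 4 called lower in 2-extra against uninduced cells, the call was lost under 8 alternatives for Fn1, 7 for Nid1, 6 for Lamb1 and 0 for Lama1. The number of the 10 genes called lower in 2-extra against uninduced cells was 4 and became 2 with DESeq2, 2 with a transcript length correction and 2 with the replicate block together with that correction; leaving out 1 library gave 1 to 5. The number lower in 0-extra against uninduced cells was 0 and became 1 without a filter and 1 with only the 2 groups fitted; leaving out 1 library gave 0 to 1. The cause was not tested. Differences near 0 changed sign. For Lamb1 in 0-extra against uninduced cells (0.0029) the log2 difference was -0.0084 with upper-quartile factors, -0.0049 without a filter and -2.7e-05 with only the 2 groups fitted, and -0.0094 to 0.021 leaving out 1 library. Leaving out 1 library gave -0.078 to 0.092 for Lama1 in that comparison and -0.0030 to 0.10 for Col4a2 in 2-extra against uninduced cells.

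The replicate numbers did not pair the samples: the correlation of their deviations was above 0.1 in 0 of 9 same-numbered pairs (-0.075 to 0.078), and 3 of 9 libraries were closest to their own number. With the replicate block 7, 2 and 0 of the 10 genes were called higher and 0, 4 and 9 lower in the order of the comparisons above, as without it. Over all genes DESeq2 called 325 higher and 363 lower in 0-extra against uninduced cells, where edgeR called 953 and 858. In 2-extra against uninduced cells it called 990 and 645 in place of 1721 and 1629, and between the sorted populations 612 and 328 in place of 1114 and 1034. Depth limits collagen I most, whose lowest count in a library was 52.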

Other observations

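Genes for the breakdown of matrix and its inhibitors were also measured, from a list of 26 of which 21 were tested. Htra1, a secreted serine protease, followed the order of collagen IV, at 14.3 ± 0.846 CPM in uninduced cells, 27.6 ± 0.681 CPM in 0-extra cells and 15.4 ± 1.23 CPM in 2-extra cells. It rose 1.92-fold in 0-extra cells and was 1.78-fold lower in 2-extra than in 0-extra cells (edgeR adjusted p = 3.62e-08 and 9.19e-07). Of the 21, 3 were called higher and 2 lower in 0-extra against uninduced cells, 4 and 5 in 2-extra against uninduced cells, and 1 and 5 between the sorted populations. The shares of all genes tested were 7.10% and 6.39%, 12.8% and 12.1%, and 8.30% and 7.70%. DESeq2 called 2 and 1, 1 and 2, and 1 and 2. Leaving out 1 library gave 1 to 2 lower in the first comparison, 1 to 4 higher and 3 to 5 lower in the second, and 3 to 5 lower in the third. The lowest counts came in the first without uninduced replicate 2 or 0-extra replicate 2 or 3. In the second they came without uninduced replicate 1 (1 higher, 3 lower) and without 2-extra replicate 3 (2 and 3), with 2 higher without replicate 2 of that group. In the third it came without 2-extra replicate 2.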
